A study of Mus musculus with 12 samples.

Results

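Wild-type elongated spermatids (ES) of the mouse testis were compared with wild-type round spermatids (RS), the earlier haploid stage from which they develop, by direct RNA sequencing of sorted cells. The comparison used 6 of the 12 libraries of the series, 3 of RS and 3 of ES, all from adult animals of genotype Tent5c wt/wt. The other 6 libraries came from Tent5c dcat/dcat animals, which carry a catalytically dead form of the poly(A) polymerase TENT5C, and entered the fit only to share the estimate of the spread and the scaling. Each library held mRNA pooled from spermatids of 3 mice, so the spread between libraries is that between pools. The methods state that round and elongated cells were sorted from the same animals, with litter mates in both genotypes, over separate sorting sessions. A contig is 1 annotated transcript or 1 repeat consensus to which reads were mapped, and a contig was kept when it had at least 10 reads in 2 or more of the 3 libraries of either stage. This rule kept 11201 of the 12114 contigs of the count table, of which 10551 were annotated transcripts of 6764 genes, 495 were repeats and 155 were not found in the annotation used. Testis suspensions had been stained with Hoechst and propidium iodide and flow sorted. Propidium iodide served to exclude dead cells, and haploid spermatids were gated on Hoechst fluorescence. Round and elongated cells were then separated on light scatter.

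During spermiogenesis a round haploid cell becomes a sperm cell without dividing again. The acrosome, a secretory vesicle, spreads over the nucleus, a microtubule skirt called the manchette shapes the head, and a flagellum with its axoneme, outer dense fibres and fibrous sheath grows from the other end. Chromatin is repacked when histones give way to transition proteins and then to protamines. Transcription falls silent as the nucleus condenses, so that many proteins of late spermatids are made from mRNAs that were transcribed earlier and stored.

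The libraries held 919491, 662269 and 1359427 counted reads in RS and 639432, 696687 and 337287 in ES. Each read is 1 RNA molecule read directly, with no PCR copies, and values are given as CPM, read counts brought to a common library size with TMM scaling, which evens out differences in composition between libraries. A contig with 0 reads could have a level of up to 3 counts, which is 1.76 to 3.54 CPM in RS and 5.85 to 10.8 CPM in ES, so low contigs were measured less well in ES. Over the 4777 more abundant contigs the log2 CPM of RS replicate 1 correlated with those of the other RS libraries at 0.908 and 0.907, against 0.972 between RS replicates 2 and 3 and 0.906 to 0.939 between ES libraries. The fit treated RS and ES libraries as independent although they share animals, since no source used here says which RS and ES libraries hold the same mice. Fewer cells of a type in a sorted pool and less RNA per cell cannot be told apart in such libraries.

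Spermatid elongation changed a large part of the measured transcriptome. By edgeR's quasi-likelihood test with Benjamini-Hochberg adjustment over the 11201 contigs, 4437 (39.6%) differed between ES and RS at an adjusted p (q) of 0.05 or less. Of the contigs tested, 2624 (23.4%) were higher in ES and 1813 (16.2%) were lower. The median log2 change was 2.05 among the contigs called higher and -1.11 among those called lower, and for the same contigs 1.30 and -1.87 with library totals alone, so which direction held the larger changes depended on the scaling. At least 4-fold changes were found for 1356 contigs called higher and 134 called lower, and at least 8-fold changes for 272 and 25. In 2878 contigs (25.7%) all 3 ES libraries lay above all 3 RS libraries, and in 3032 (27.1%) all lay below. The contigs called higher took 30.6 ± 3.61% (SD, n = 3) of the counts in RS and 69.1 ± 2.40% in ES, and the contigs called lower took 31.7 ± 2.09% in RS and 9.78 ± 1.05% in ES.

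The way a contig passed the filter limited the call that it could get. Of 5525 contigs that passed in both stages, 2011 rose and 1088 fell, of 5088 that passed through RS alone 33 rose and 725 fell, and of 588 that passed through ES alone 580 rose and 0 fell. A list whose contigs passed mostly through RS could therefore gain few increases, and for such lists the counts among contigs that passed in both stages are given, to be read against 36.4% rising and 19.7% falling there. Increases named below that had passed through ES alone include Hdac11, Kif5c, Calr3, Lcn2 and contigs of Klc3, Izumo2, Rpl10, Larp1b and H3f3a. The direction of small changes depended on the scaling too. The median log2 change over all contigs was -0.25 after TMM scaling and -1.001 with library totals alone, a shift of -0.75. Of all calls 59.1% were increases after TMM scaling, 42.9% after upper-quartile scaling and 25.1% with library totals alone. Changes are therefore read below against all contigs tested, and for groups whose balance of calls turned with library totals alone those counts are given too. List counts are of contigs, and a gene can hold several, so the balance by gene could differ. For example, 6 kinesin genes had increases and 7 had decreases. These numbers were 5 and 8 for poly(A) polymerases and binding proteins, 5 and 7 for Kelch and BTB adaptors, and 23 and 27 for Ccdc genes. The number of decreases also rested on the ES replicates, falling from 1813 to 1063, 917 and 1070 without ES replicate 1, 2 and 3, so that increases then made up 70.3%, 72.3% and 71.3% of the calls.

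Markers of late germ cells followed the labels, and those of earlier cells did so less firmly. Of 26 contigs of 13 genes listed for elongated spermatids, 23 rose and 0 fell, with a median log2 change of 2.91. Of 17 contigs of 12 genes listed for round spermatids 3 rose and 7 fell (median -0.57), and of 27 contigs of 13 spermatocyte genes 1 rose and 10 fell (median -0.73). Tssk1 and Lyzl1 were among the round markers that rose. Many of the decreases were not firm. Calls of Acr, Acrv1, Acrbp and Tex36 in the round list were lost when single libraries were left out. So were calls of Sycp2, Sycp3, Aurka, Ccna1 and Spag6 in the spermatocyte list. Among those that fell, Spesp1, an acrosomal protein, had 384.1, 370.9 and 365.2 CPM in RS and 144.8, 134.5 and 129.6 CPM in ES, with no overlap (log2 change -1.45, SE 0.15, q = 4.21e-06). Spo11, which makes the DNA breaks of meiotic recombination, had 1 contig at 62.8 ± 9.09 CPM in RS and 15.7 ± 7.04 CPM in ES (-2.02, q = 0.000817). Reads of the round spermatid list remained in the ES libraries. Its summed level, the 3 rising contigs included, was 2093 ± 80.1 CPM in RS and 1678 ± 89.1 CPM in ES. Its share of the counts went from 0.270% to 0.130%. The paper describes the sorted pools as enriched for their stage, and the part of round cells in the ES reads was not tested.

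Markers of cells outside the germ line were low in all libraries and higher in ES. Of 12 Leydig cell genes, which mark the hormone-producing cells between the tubules, 7 had contigs tested, and 6 of their 7 contigs rose. Their summed level was 94.5 ± 29.1 CPM in RS and 740 ± 232 CPM in ES. Insl3, a peptide hormone, had 8.19, 28.35 and 31.71 CPM in RS and 285.4, 553.7 and 514.6 CPM in ES (log2 change 4.29, q = 1.49e-05). Cyp17a1 and Cyp11a1, enzymes of androgen synthesis, Fabp3, Aldh1a1 and Ptgds also rose, to means of 23.3 to 71.7 CPM in ES, while Fdx1 had 62.4 ± 17.7 CPM in RS and 55.6 ± 7.98 CPM in ES (q = 0.654). Hsd3b1, Hsd3b6, Hsd17b3, Star and Lhcgr had no contig in the table.

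The Sertoli cell and macrophage lists behaved likewise. Of 20 Sertoli cell genes, which mark the supporting cells of the tubule, 7 had contigs tested, and 7 of their 8 contigs rose, with sums of 49.9 ± 5.25 CPM in RS and 352 ± 118 CPM in ES. The contigs that rose belonged to Aard, Clu, Cst9, Ctsl, Defb36 and Wfdc10, with ES means of 21.0 to 84.9 CPM, whereas Dhh, a signalling ligand, had 16.6 ± 3.49 and 12.7 ± 4.82 CPM (q = 0.381). Sox9, Wt1, Amh and Gata4, which define the type, were not among the contigs tested. Of 16 macrophage and endothelial genes 6 had contigs tested, and all 6 contigs rose, from a sum of 19.2 ± 6.86 CPM in RS to 275 ± 43.2 CPM in ES. Cd74, H2-Ab1, H2-Eb1 and H2-Aa, of the antigen-presenting class II complex, C1qb, a complement protein, and Apoe, a lipid carrier, had ES means of 30.3 to 71.5 CPM, with 1 read of H2-Aa over the 3 RS libraries. In these lists 5 of 7, 6 of 8 and 6 of 6 contigs had passed the filter through ES alone and had to be higher. None of 11 genes of peritubular myoid and stromal cells and none of 7 red cell genes had a contig in the table. Beside every contig named below as higher in ES stands this rise of other cells' markers, whose part in those results was not tested.

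**Figure D1:**
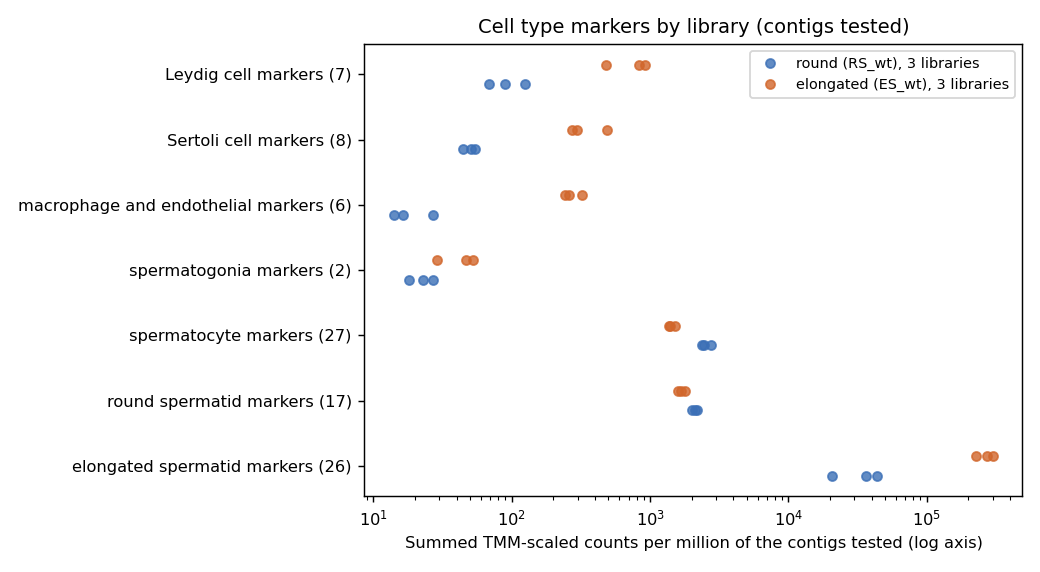
Summed level of each marker list (CPM, log axis) in the 3 RS and 3 ES libraries, one point per library. The Leydig, Sertoli and macrophage sums lie at 740, 352 and 275 CPM on average in ES against 94.5, 49.9 and 19.2 CPM in RS, without overlap.

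The largest fold increases included such contigs. Among contigs of protein-coding genes with at least 100 CPM in the higher stage and no overlap, the 10 largest increases were those of Lcn2, Gstm1, Insl3, Gstm2, a second contig of Prm1, Lrrc57, Wasf2, Tmem269, Cst8 (in a contig annotated as a processed transcript) and Prdx4. Lcn2, a secreted iron-binding lipocalin, had 4.914, 2.363 and 3.523 CPM in RS and 80.93, 120.9 and 111.6 CPM in ES (log2 change 4.76, SE 0.56, q = 1.21e-05). Its contig had passed the filter through ES alone, a class in which almost every contig was called higher. Gstm1 and Gstm2, glutathione transferases, rose by 4.30 and 4.09 on the log2 scale. Tmem269 rose from 26.8 ± 9.98 to 312 ± 20.6 CPM, and Wasf2, which activates actin branching, from 7.91 ± 1.74 to 106 ± 28.5 CPM. The 10 largest decreases were smaller and lay between -1.54 and -1.76, for Zpbp2, Flywch1, Kpna2, Arc, Mapk8ip2, Tbpl1, Pttg1, Ciapin1, Reep4 and Foxj1. Foxj1, the master regulator of motile cilia genes, had 186.7, 170.1 and 135.6 CPM in RS and 68.15, 40.94 and 61.18 CPM in ES (-1.54, q = 0.000731). Pttg1, the securin that holds back chromatid separation, fell from 168 ± 33.1 to 56.0 ± 11.8 CPM, and Tbpl1, a testis relative of the TATA-binding protein, from 563 ± 52.5 to 184 ± 38.4 CPM.

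In absolute terms 4 mRNAs of nuclear packing proteins gained most. Transition proteins (Tnp1, Tnp2) replace histones and protamines (Prm1, Prm2) then coat the DNA, both through arginine-rich stretches that bind its backbone. The 6 contigs of this list took 2.30%, 4.09% and 4.88% of the counts in RS and 17.99%, 20.4% and 16.9% in ES. The coding sequences of Prm1 and Tnp1 are shown because they carried the largest gains, with arginine codons in capitals. The Prm1 coding sequence without its stop codon spans chr16:10796487-10796731 (GRCm38, minus strand, introns included in the span), with 153 nt and 28 arginine codons of 51 (54.9%). That of Tnp1 spans chr1:73015300-73015863 (GRCm38, minus strand), with 165 nt and 11 arginine codons of 55 (20%).
Prm1: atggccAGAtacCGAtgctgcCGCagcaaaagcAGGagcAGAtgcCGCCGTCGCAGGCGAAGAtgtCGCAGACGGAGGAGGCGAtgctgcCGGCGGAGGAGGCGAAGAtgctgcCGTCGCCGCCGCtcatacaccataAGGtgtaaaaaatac
Tnp1: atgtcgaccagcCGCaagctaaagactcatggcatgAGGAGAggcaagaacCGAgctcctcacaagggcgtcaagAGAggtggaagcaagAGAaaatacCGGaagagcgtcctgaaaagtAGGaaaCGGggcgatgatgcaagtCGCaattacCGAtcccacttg

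Prm1 had 6716, 12550 and 15420 CPM in RS and 103200, 115700 and 87510 CPM in ES (log2 change 3.14, SE 0.28, q = 1.69e-06). Tnp1 had 3731, 7593 and 8962 CPM in RS and 47590, 62920 and 40260 CPM in ES (2.89, SE 0.30, q = 4.54e-06). In both genes RS replicate 1 was the lowest library, and the stages did not overlap. Prm2 rose by 3.00 and Tnp2 by 2.98 on the log2 scale, to 42030 ± 6004 and 41520 ± 5027 CPM, and Prm3, a less basic relative, by 2.90 from 412 to 3066 CPM. Prm1 was also the contig with the largest share of reads in RS, at 0.892% to 1.93% of a library against 7.21% to 8.52% in ES. Of 8872 contigs with a complete coding sequence Prm1 had the highest share of arginine codons, but the medians of the calls lay close together. The median share was 5.56% in contigs called higher, 5.61% in those called lower and 5.64% in the rest, and of 74 contigs with at least 15% arginine codons 22 rose, 7 fell and 45 were not called.

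Further large gains went to other late spermatid mRNAs. Dbil5, an acyl-CoA-binding protein of late spermatids, had 936.9, 1236 and 1584 CPM in RS and 6102, 6619 and 5528 CPM in ES (log2 change 2.28, SE 0.19, q = 1.49e-06). Oaz3, the antizyme that restrains polyamine synthesis in spermatids, rose from 1000 ± 220 to 5758 ± 1832 CPM, and Smcp, a cysteine-rich protein of sperm mitochondria, from 836 ± 141 to 4632 ± 935 CPM. 2610318N02Rik and 1700003F12Rik, genes known only by clone names, rose by 2.72 and 2.62 on the log2 scale. The largest loss was that of Tcte3, a dynein light chain, with 4920, 5733 and 5384 CPM in RS and 2566, 2765 and 2645 CPM in ES (-1.01, SE 0.13, q = 2.87e-05). Acyp1, an acylphosphatase, fell by 1.06, Tmem97, a membrane protein of sterol handling, by 1.19, and Gkap1, a kinase-anchoring protein, by 1.31 on the log2 scale. Ubb, which encodes ubiquitin, fell from 5928 ± 240 to 4240 ± 688 CPM (-0.48, q = 0.0126), a call that was lost without ES replicate 2 (-0.30, q = 0.200) or ES replicate 3 (-0.37, q = 0.107). Tcp1, a subunit of the cytosolic chaperonin, fell from 1927 ± 198 to 1321 ± 211 CPM (-0.54, q = 0.0241), a call lost without ES replicate 2 (q = 0.226), ES replicate 3 (q = 0.186) or RS replicate 1 (q = 0.0766). Ube2s, a ubiquitin-conjugating enzyme of the cell cycle, fell from 1398 ± 125 to 798 ± 158 CPM (-0.81, q = 0.00861), a call lost without ES replicate 2 (q = 0.104) or ES replicate 3 (q = 0.0726). Ldhc, the lactate dehydrogenase of the germ line and among the 10 contigs with the highest mean CPM in both stages, had 5245 ± 298 CPM in RS and 5445 ± 628 CPM in ES (0.05, q = 0.754), but -0.70 with library totals alone (q = 3.56e-05).

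**Figure D2:**
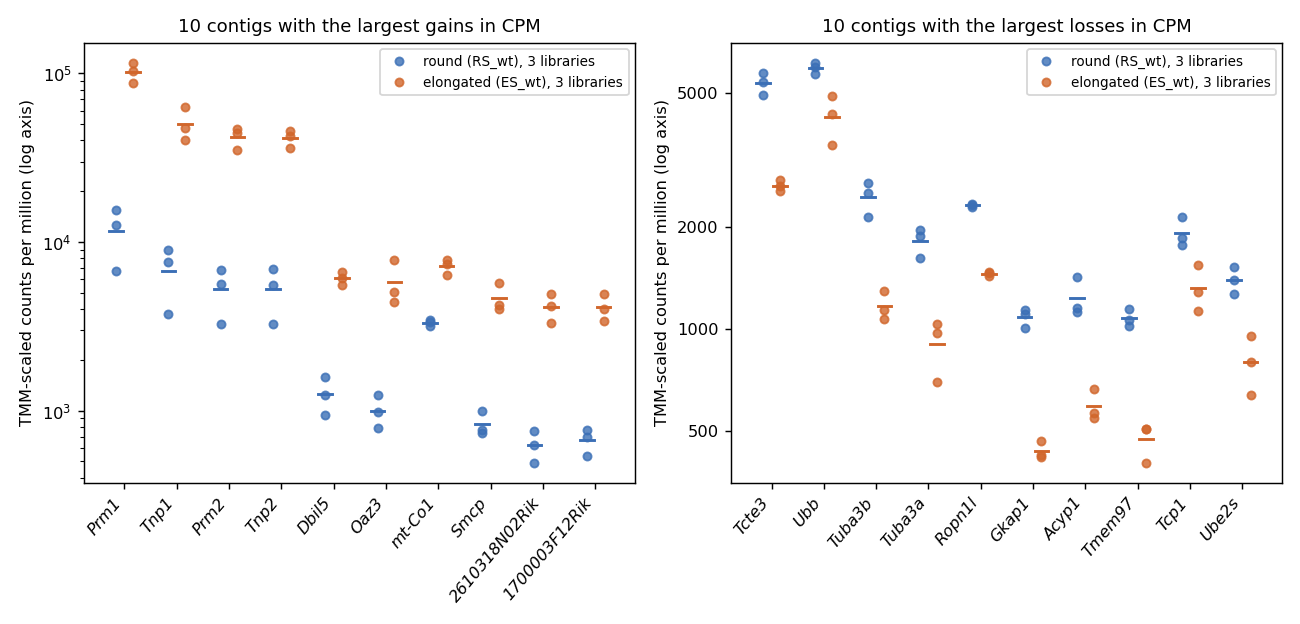
CPM (log axis) of the 10 contigs with the largest gain and the 10 with the largest loss in mean CPM from RS to ES, one point per library and a bar at each mean of 3. Prm1 gained most, to between 87510 and 115700 CPM in ES, and Tcte3 lost most, to between 2566 and 2765 CPM.

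Other chromatin genes divided by role. Spermatid linker histones rose with the protamines: H1fnt had 190.8, 323.7 and 330.6 CPM in RS and 2281, 2310 and 1684 CPM in ES (log2 change 2.89, q = 1.10e-06), and Hils1 rose from 647 ± 177 to 2884 ± 474 CPM. Of 28 contigs of core histones and their variants 13 rose and 3 fell, and the increases were led by short spermatid variants of H2A. H2al2a, which dimerises with testis H2B, rose by 3.21 on the log2 scale to 2262 ± 434 CPM, and H2al1n by 3.02 to 377 ± 21.0 CPM, although reads of near-identical H2al1 copies could be split between them. The general variant H2afz fell from 596 ± 9.53 to 303 ± 16.9 CPM (-0.98, q = 0.00028), and Hist1h2bp from 152 ± 20.3 to 78.4 ± 4.13 CPM. Of 81 contigs of remodelling and histone-modifying enzymes 2 rose and 15 fell (median -0.42), or 2 and 10 by DESeq2, but 59 had passed the filter through RS alone. Of the 21 that passed in both stages 1 rose and 6 fell. Hdac1, a histone deacetylase, fell from 209 ± 45.1 to 90.0 ± 14.2 CPM (-1.23, q = 0.00121). The 2 that rose were Hdac11 (2.67, q = 0.000224) and Chd5, a remodeller required in spermatids for histone removal, with 21.29, 17.72 and 31.71 CPM in RS and 102.2, 81.89 and 61.18 CPM in ES (1.77, q = 0.000392).

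Contigs of flagellar genes differed by structure. Those of the accessory structures of the tail rose more often than they fell. Of 17 contigs of outer dense fibre genes 9 rose and 1 fell (median 0.75), and of 25 contigs of fibrous sheath genes 11 rose and 3 fell (median 0.98). Odf1, a main protein of the outer dense fibres, had 625.7, 841.1 and 852.6 CPM in RS and 4128, 3654 and 2998 CPM in ES (log2 change 2.22, q = 1.40e-06), and the leading contig of Odf2 rose by 2.12 to 986 ± 81.9 CPM. Akap4, the scaffold of the fibrous sheath, had 188.4, 165.4 and 213.7 CPM in RS and 1766, 1636 and 1828 CPM in ES (3.20, SE 0.16, q = 4.92e-08). Spa17, a sperm anchoring protein, rose from 1214 ± 236 to 3107 ± 463 CPM, whereas Ropn1l, which docks to radial spokes and sheath, fell from 2322 ± 26.2 to 1461 ± 17.7 CPM (-0.67, q = 0.000309).

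The axoneme, the microtubule core of the flagellum, showed the opposite balance. Of 38 contigs of axonemal dyneins, its motors, and of their assembly factors 0 rose and 12 fell (median -0.65), with 28 falling on library totals alone, 8 with RLE size factors and 6 by DESeq2. Of these contigs 23 had passed through RS alone, and of the 15 that passed in both stages 0 rose and 8 fell. Of 62 contigs of Cfap and radial spoke genes 8 rose and 22 fell (median -0.68), with 6 and 21 among the 40 that passed in both stages, and their share of the counts went from 1.25% to 0.476%. Shares rest on library totals, and after TMM scaling the summed level went from 9730 ± 480 to 6206 ± 315 CPM. Rsph6a, a radial spoke head protein, had 230.9, 131.1 and 142.1 CPM in RS and 63.89, 44.84 and 79.18 CPM in ES (-1.46, q = 0.00126). Cfap97d1, needed for sperm motility, was an exception, rising from 71.8 ± 27.5 to 304 ± 57.5 CPM (2.08, q = 4.43e-05). Of 11 tektin contigs, which line the doublet microtubules, 3 fell, with Tekt3 going from 368 ± 9.35 to 184 ± 14.3 CPM, and 1 of Tekt5 rose (1.65, q = 0.000762). Of 30 contigs of intraflagellar transport genes, which carry cargo along the growing axoneme, 2 rose and 5 fell, and 17 had passed through RS alone. The share falling, 16.7%, was near the 16.2% over all contigs, and among the 13 that passed in both stages 2 rose and 4 fell. Ift43 fell from 264 ± 25.5 to 98.3 ± 14.2 CPM (-1.41, q = 6.15e-05), while a contig of Ift172 of 742 nt, annotated as a retained intron and not as coding, had 79.44, 131.1 and 147.4 CPM in RS and 903, 976.8 and 745 CPM in ES (2.87, q = 2.27e-06).

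Tubulins, the subunits of microtubules, and kinesins, motors that run along them, were divided within the family. Of 10 alpha and beta tubulin contigs 8 rose and 2 fell, yet the summed level was 6105 ± 419 CPM in RS and 5566 ± 626 CPM in ES. The 2 that fell were Tuba3b, from 2456 ± 280 to 1171 ± 117 CPM (-1.07, q = 7.04e-05), and Tuba3a, from 1826 ± 174 to 904 ± 181 CPM (-1.02, q = 0.00035), near-identical genes whose reads may be split. Tuba4a rose from 18.6 ± 5.74 to 162 ± 88.4 CPM, and Tubb4b from 1584 ± 57.9 to 2274 ± 377 CPM (0.52, q = 0.00758), a change that read -0.24 with library totals alone. Of 33 kinesin contigs 10 rose and 7 fell, or 8 and 19 with library totals alone and 8 and 4 among the 15 that passed in both stages. Kif5c, a cargo kinesin, rose from 5.13 ± 1.27 to 38.1 ± 7.96 CPM (2.83, q = 2.99e-05), and a contig of Klc3, a light chain that binds outer dense fibres and mitochondria, from 2.19 ± 0.377 to 27.4 ± 6.94 CPM (3.62, q = 0.000172). Both contigs had passed the filter through ES alone. Kif20a, which had passed through RS alone, fell by 1.74 on the log2 scale, a call lost without ES replicate 1 (q = 0.0512).

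**Figure D3:**
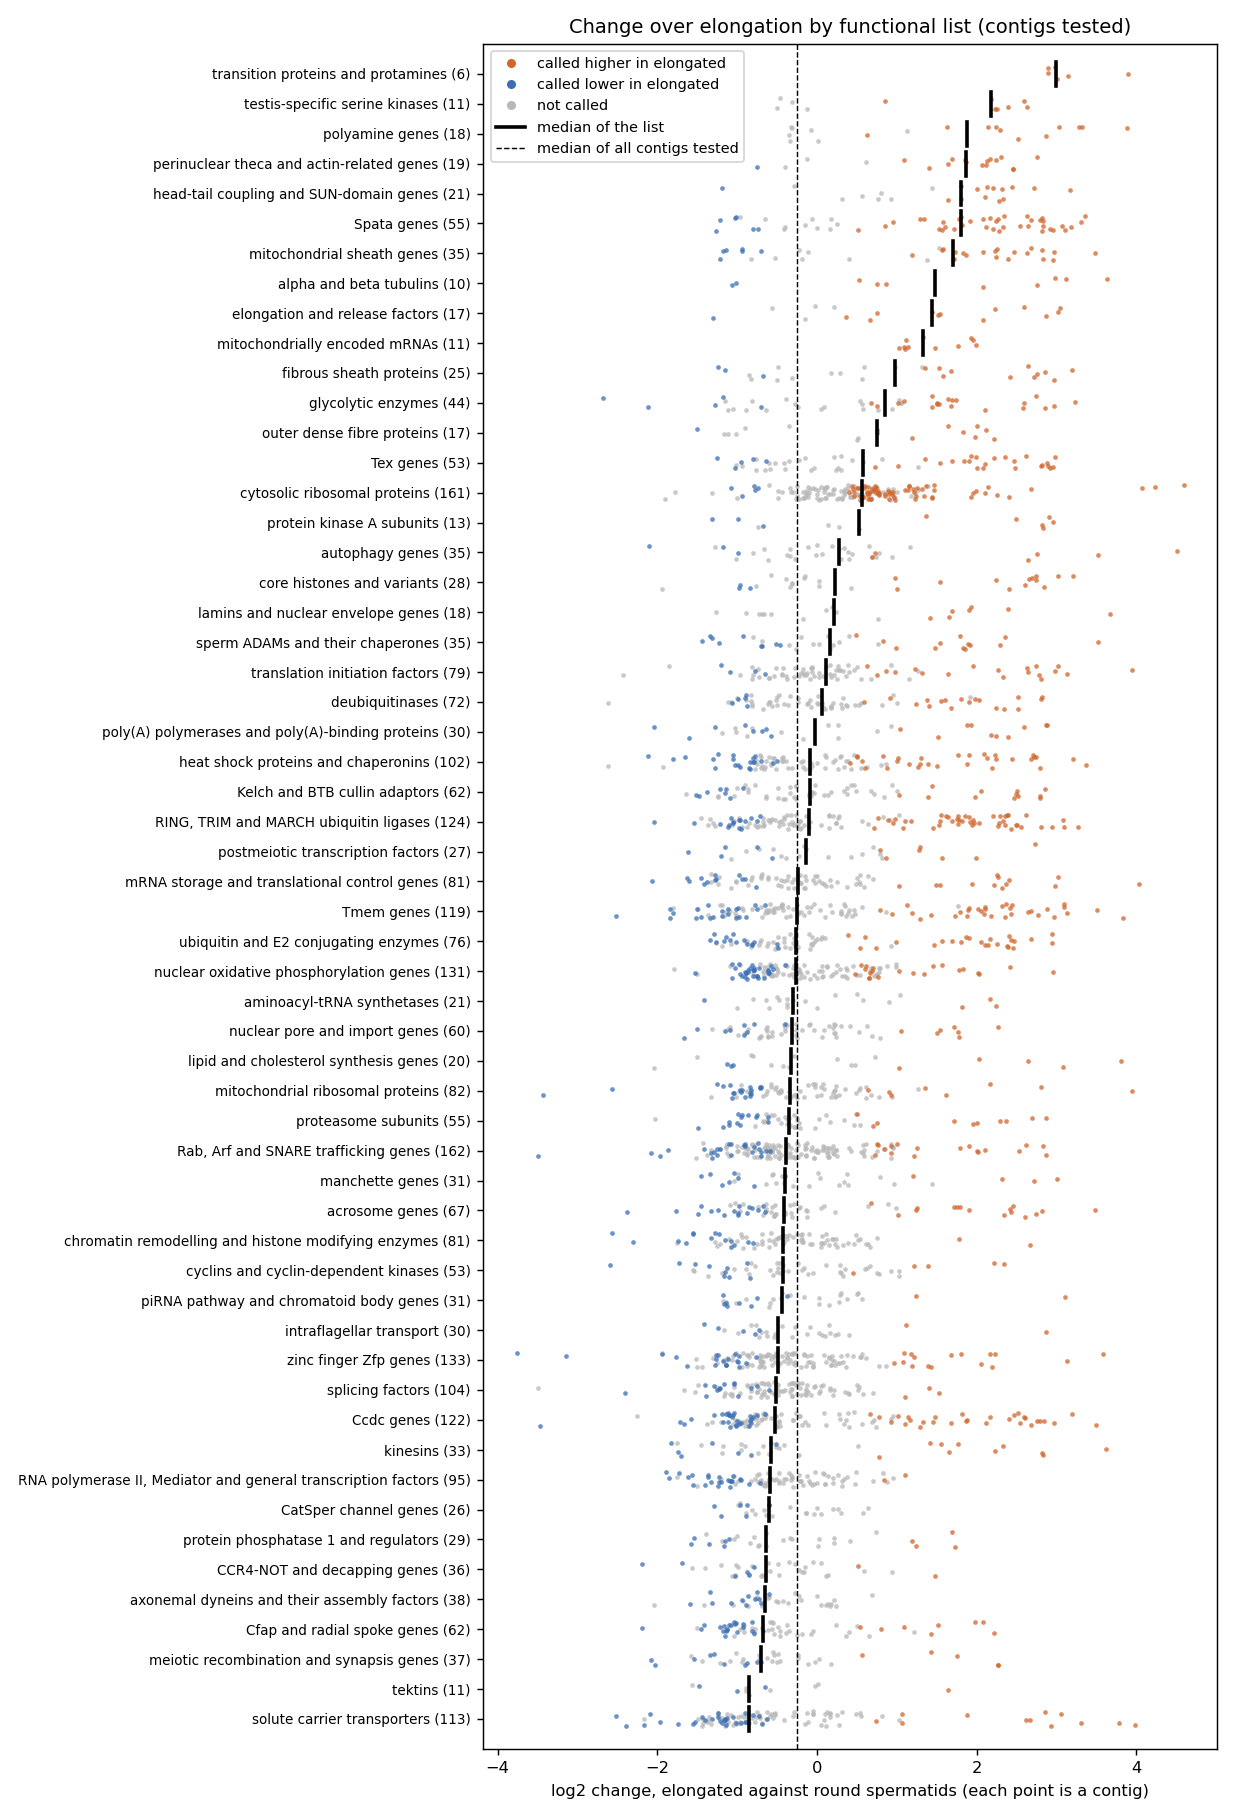
Log2 change from RS to ES of each contig tested (one point) in the functional lists, coloured by call, with the median of each list (bar) and of all 11201 contigs (dashed line, -0.25). The transition protein and protamine list lies highest among the lists of sperm structures with a median of 2.99, and solute carriers, tektins and meiotic genes lie at -0.85, -0.85 and -0.70.

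Genes of the neck and of the shell around the nucleus rose more often than they fell. Of 21 contigs of head-tail coupling and SUN-domain genes, which tie the flagellum to the nucleus, 13 rose and 1 fell (median 1.81). Spata6, needed to build the connecting piece, had 328.4, 294.1 and 347 CPM in RS and 1365, 974.9 and 1040 CPM in ES (log2 change 1.80, q = 5.95e-06), while Ccdc42 fell from 234 ± 30.6 to 104 ± 17.1 CPM (-1.18, q = 0.00168). Of 19 contigs of the perinuclear theca and actin-related genes, which form the shell between acrosome and nucleus, 15 rose and 1 fell (median 1.87). Actrt2, an actin-related theca protein, had 229.3, 329.6 and 375.2 CPM in RS and 1763, 1423 and 1447 CPM in ES (2.31, q = 1.40e-06), and Capzb, an actin capping subunit, rose from 72.4 ± 22.3 to 490 ± 124 CPM. The contig that fell belonged to Actl7b (-0.75, q = 0.0303), a call that was lost without ES replicate 2 (-0.45, q = 0.222), ES replicate 3 (-0.75, q = 0.0736) or RS replicate 1 (-0.54, q = 0.12). Manchette genes were mixed, with 4 of 31 contigs rising and 8 falling, or 6 and 7 by DESeq2. Spem1, which clears cytoplasm from the neck, had 204.7, 278.8 and 370.5 CPM in RS and 2788, 1934 and 2152 CPM in ES (3.01, q = 1.31e-06), whereas Meig1, needed to build the manchette, had 2418 ± 342 and 2937 ± 407 CPM (0.28, q = 0.164, or -0.47 with q = 0.00601 on library totals alone).

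Genes of the acrosome, surface and ion channel differed by group. Of 67 acrosome contigs 16 rose and 17 fell (median -0.41), or 12 and 39 with library totals alone and 16 and 15 by DESeq2. Zpbp2, which binds the egg coat, had a contig at 226.9, 192.5 and 192.6 CPM in RS and 91.58, 50.69 and 32.39 CPM in ES (log2 change -1.76, q = 0.00349). Sppl2c, an intramembrane protease of spermatids, rose from 53.9 ± 8.93 to 374 ± 155 CPM (2.82, q = 8.02e-06), and a contig of Izumo2 from 7.84 ± 4.99 to 94.7 ± 64.8 CPM (3.48, q = 0.000408). ADAM proteins, which mature on the sperm surface, and their chaperones gave 13 increases and 9 decreases among 35 contigs with a median of 0.17, or 10 and 14 with library totals alone. Adam18 and Adam30 fell by 1.44 and 1.34 on the log2 scale, while Calr3, a chaperone needed for Adam3, rose by 3.52 to 52.1 ± 34.0 CPM and Ace, the testis form of a peptidase, by 2.35 to 131 ± 55.8 CPM. Of 26 contigs of the CatSper calcium channel, which drives hyperactivated motility, 0 rose and 7 fell (median -0.60), with 0 and 5 among the 11 that passed in both stages. Catsperz had 727.2, 797.4 and 866.7 CPM in RS and 440.9, 436.7 and 424.7 CPM in ES (-0.88, q = 0.000248), and Catsper2 fell from 185 ± 13.5 to 80.8 ± 8.10 CPM.

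Among signalling genes the testis-specific serine kinases stood on the rising side. These kinases act in late spermatids, and 7 of 11 contigs of their list rose and 0 fell, with a median of 2.18. Tssk6, needed for chromatin condensation, had 133.5, 197.3 and 226.7 CPM in RS and 1333, 1063 and 1076 CPM in ES (log2 change 2.64, q = 1.69e-06). Tssk3 rose from 153 to 928 ± 129 CPM and Tssk2 from 305 to 1379 ± 161 CPM. Of 13 contigs of protein kinase A subunits and partners 6 rose and 3 fell. Those that rose belonged to 2 genes, as did those that fell. Prkar2a, the regulatory subunit anchored in the tail, had 47.5, 85.05 and 111.6 CPM in RS and 711.4, 627.8 and 575.8 CPM in ES (2.96, q = 2.51e-06). Of 29 contigs of protein phosphatase 1 and its regulators 4 rose and 6 fell, or 4 and 2 among the 14 that passed in both stages, among them Ppp1r2, an inhibitor subunit that rose from 368 ± 35.5 to 872 ± 103 CPM, and Ppp1r42, which fell from 91.1 ± 21.2 to 29.3 ± 11.8 CPM. Cyclins and cyclin-dependent kinases gave 5 increases and 10 decreases among 53 contigs, or 5 and 5 among the 20 that passed in both stages. Ccnb2, a mitotic and meiotic cyclin, fell from 313 ± 25.6 to 124 ± 36.9 CPM (-1.36, q = 0.000233), and Cdk16, a cyclin-dependent kinase needed for spermiogenesis, rose from 14.2 ± 1.96 to 74.5 ± 37.97 CPM.

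Energy genes changed in both directions. Of 44 contigs of glycolytic enzymes, which supply much of the ATP of the tail, 20 rose and 5 fell (median 0.86). Gapdhs, the sperm glyceraldehyde phosphate dehydrogenase bound to the fibrous sheath, had its leading contig at 467.6, 259.9 and 302.4 CPM in RS and 3361, 1398 and 2735 CPM in ES (log2 change 2.86, q = 4.44e-05). Another of its contigs ran at 9.008, 122.9 and 177.9 CPM in RS and 38.34, 389.9 and 14.4 CPM in ES (q = 0.709), overlapping between stages. Of 35 contigs of the mitochondrial sheath list 21 rose and 6 fell (median 1.70). Those that rose belonged to 8 of its 15 genes and those that fell to 6. Gpx4, a selenoprotein of the sheath, had 2056, 1607 and 1787 CPM in RS and 5472, 3219 and 3815 CPM in ES (1.20, q = 0.0112), or 1.01 with q = 0.0514 without ES replicate 1 and 0.44 with q = 0.224 on library totals alone. Vdac2, an outer membrane pore, fell from 931 ± 62.6 to 402 ± 93.8 CPM (-1.22, q = 0.000113), and Gk2, a testis glycerol kinase, from 904 ± 45.1 to 402 ± 28.8 CPM.

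All 11 mRNAs encoded by the mitochondrial genome rose, by 1.03 to 1.99 on the log2 scale, and 9 did so with library totals alone. mt-Co1, a subunit of cytochrome oxidase, had 3184, 3336 and 3431 CPM in RS and 7373, 7851 and 6374 CPM in ES (1.12, q = 2.80e-05), and mt-Nd2, of complex I, rose from 133 ± 19.8 to 530 ± 20.6 CPM. Together they took 1.37 ± 0.072% of the counts in RS and 1.85 ± 0.108% in ES. Nuclear genes of oxidative phosphorylation were divided, giving 21 increases and 33 decreases among 131 contigs and a median of -0.26, against -0.25 over all contigs. Cox8c, a testis form of a cytochrome oxidase subunit, fell from 1364 ± 102 to 787 ± 25.7 CPM (-0.79, q = 0.000436), and Ndufs5 from 176 ± 30.1 to 83.3 ± 16.5 CPM, while Ndufa13 rose from 166 ± 34.3 to 682 ± 93.0 CPM (2.03, q = 2.11e-06). Of 82 contigs of mitochondrial ribosomal proteins 8 rose and 20 fell.

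**Figure D4:**
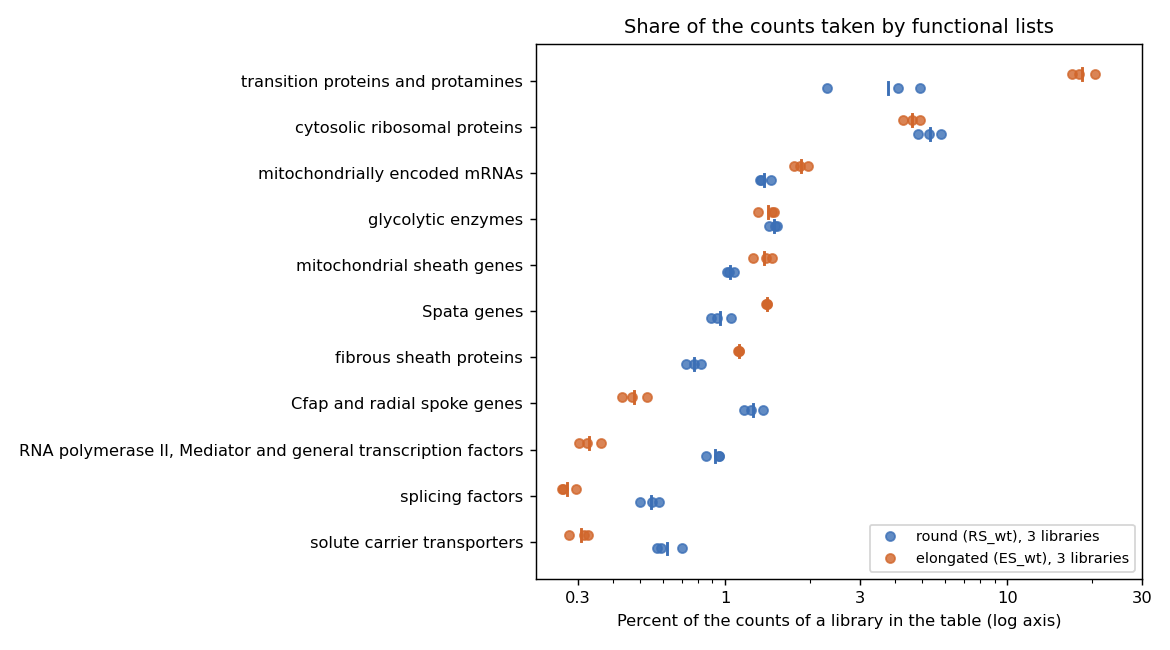
Percent of the counts of a library (log axis) taken by 11 functional lists, one point per library and a bar at each mean of 3. Transition proteins and protamines went from 3.76% to 18.4%, Cfap and radial spoke genes from 1.25% to 0.476% and RNA polymerase II genes from 0.918% to 0.330%. Shares rest on library totals, on which the median log2 change over all contigs was -1.001.

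The balance of the translation machinery depended on the scaling. Of 161 contigs of cytosolic ribosomal proteins 71 rose and 5 fell (median 0.57), whereas with library totals alone 15 rose and 45 fell, and their share of the counts was 5.31 ± 0.513% in RS and 4.59 ± 0.311% in ES. Rps20, of the small subunit, had 921.3, 1237 and 1153 CPM in RS and 2641, 2989 and 2095 CPM in ES (log2 change 1.22, q = 4.50e-05). Rpl10l, the autosomal copy that stands in for X-linked Rpl10 in meiosis, fell from 604 ± 56.9 to 317 ± 91.3 CPM (-0.94, q = 0.00118), while a contig of Rpl10 had 0, 1.181 and 3.523 CPM in RS and 36.21, 27.3 and 50.38 CPM in ES (q = 8.06e-05), a pair of near-identical genes whose reads may be split. Initiation factors gave 19 increases and 4 decreases among 79 contigs, or 13 and 31 with library totals alone. Eif1, which guards start codon choice, had 809.1, 989.9 and 1117 CPM in RS and 4219, 3738 and 3358 CPM in ES (1.96, q = 1.61e-06). Eif4h, a helicase partner, rose from 58.8 ± 16.8 to 522 ± 290 CPM, and Eif2s2 and Eif3d fell by 1.20 and 1.08 on the log2 scale. Of 17 contigs of elongation and release factors 12 rose and 1 fell, and of 21 of aminoacyl-tRNA synthetases 3 rose and 1 fell, or 3 and 10 with library totals alone, Vars rising by 2.17 to 239 ± 37.4 CPM. Of the synthetase contigs 12 had passed through RS alone, and among the 9 that passed in both stages 3 rose and 0 fell.

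Genes acting on mRNA were divided. Poly(A) polymerases and poly(A)-binding proteins, which lengthen and cover mRNA tails, gave 10 increases and 8 decreases among 30 contigs, or 9 and 16 with library totals alone. Tent5b, a relative of the polymerase Tent5c, had 78.62, 83.87 and 77.51 CPM in RS and 29.82, 23.4 and 25.19 CPM in ES (log2 change -1.60, q = 0.000234), and Paip2, which binds poly(A)-binding protein and limits its use, rose from 13.6 ± 7.66 to 99.1 ± 32.9 CPM (2.87, q = 9.30e-05). CCR4-NOT and decapping genes, which shorten tails and remove caps, gave 2 increases and 6 decreases among 36 contigs, of which 26 had passed through RS alone. The share falling, 16.7%, was near the 16.2% over all contigs, and among the 10 that passed in both stages 2 rose and 3 fell. Of 81 contigs of mRNA storage and translational control genes 13 rose and 13 fell, or 9 and 37 with library totals alone and 11 and 5 among the 39 that passed in both stages. The 13 that rose belonged to 5 genes and the 13 that fell to 11. Ybx2, a germ cell protein that holds stored mRNAs, had 930.3, 556.4 and 698.7 CPM in RS and 947.8, 555.7 and 978.9 CPM in ES (0.18, q = 0.585), overlapping between stages, and Cpeb3, a binder of cytoplasmic polyadenylation elements, had a contig that rose from 4.87 ± 3.32 to 36.3 ± 15.9 CPM. Of 31 contigs of the piRNA pathway and the chromatoid body 2 rose and 8 fell, with Tdrd7, a scaffold of that body, going from 159 ± 24.8 to 68.8 ± 20.5 CPM (-1.18, q = 0.00266).

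Contigs of transcription and splicing genes were called lower more often than higher, although many had passed the filter through RS alone. Of 95 contigs of RNA polymerase II, Mediator and the general transcription factors 2 rose and 24 fell (median -0.58), with 2 and 17 among the 43 that passed in both stages. Of 104 splicing factor contigs 3 rose and 14 fell (median -0.51), which is below the share falling over all contigs, with 1 and 11 among the 36 that passed in both stages. Their shares of the counts went from 0.918% to 0.330% and from 0.544% to 0.275%. Shares rest on library totals, on which the median log2 change over all contigs was -1.001. After TMM scaling the summed levels went from 7101 ± 292 to 4251 ± 157 CPM and from 4173 ± 215 to 3501 ± 44.0 CPM. Taf9b, a TFIID subunit, had 34.4, 29.53 and 24.07 CPM in RS and 10.65, 5.849 and 7.198 CPM in ES (log2 change -1.86, q = 0.00162). Its contig had passed the filter through RS alone, and ES replicates 2 and 3 lay at or below the floor of 3 counts. Snrpd2, a core protein of splicing particles, rose from 371 ± 68.7 to 982 ± 79.7 CPM (1.41, q = 4.50e-05). Postmeiotic transcription factors gave 7 increases and 5 decreases among 27 contigs, or 3 and 14 with library totals alone. Spz1, a spermatid helix-loop-helix factor, had 380, 437.1 and 584.2 CPM in RS and 2183, 1776 and 1637 CPM in ES (1.997, q = 2.32e-06), and Fhl5, the coactivator of CREM, rose from 65.9 ± 22.8 to 438 ± 101 CPM. Gtf2a1l, a germ cell subunit of TFIIA, fell from 444 ± 17.1 to 192 ± 32.9 CPM (-1.20, q = 6.17e-05). Of 133 contigs of Zfp genes 16 rose and 20 fell (median -0.49), a balance that turned to 16 and 8 by DESeq2 and to 12 and 6 among the 36 that passed in both stages. Meiotic recombination and synapsis genes gave 5 increases and 10 decreases among 37 contigs (median -0.70), or 5 and 6 among the 17 that passed in both stages. The contigs that rose belonged to 2 genes and those that fell to 8. Syce2 (in a contig annotated for nonsense-mediated decay) and Syce3, of the synaptonemal complex that holds homologues together, were among the increases, to 73.3 ± 30.6 and 60.8 ± 9.94 CPM.

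Nuclear transport genes gave 7 increases and 9 decreases among 60 contigs, of which 19 had passed through RS alone. The share falling, 15%, was near the 16.2% over all contigs. Among the 40 that passed in both stages 6 rose and 8 fell, so the decreases named here are single genes and not a trait of the group. Kpna2, an importin that is high up to the round stage, had 340.7, 450.1 and 550.8 CPM in RS and 174.6, 120.9 and 126 CPM in ES (log2 change -1.67, q = 7.25e-05), and Ran, the GTPase that powers the cycle, fell from 803 ± 58.9 to 464 ± 18.3 CPM. A contig of Ipo5, an importin of histones and ribosomal proteins, that is annotated as a processed transcript rose from 158 ± 38.9 to 545 ± 145 CPM (1.78, q = 0.000143). Of 18 contigs of lamins and nuclear envelope genes 7 rose and 0 fell, or 5 and 6 with library totals alone, with Tor1aip1, a partner of torsin, rising by 2.39 to 253 ± 68.2 CPM.

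Lists of protein turnover differed. Of 124 contigs of RING, TRIM and MARCH ubiquitin ligases 46 rose and 16 fell, of 72 of deubiquitinases 18 rose and 5 fell, and of 76 of ubiquitin and its E2 conjugating enzymes 25 rose and 15 fell. With library totals alone these counts were 32 and 49, 13 and 27, and 17 and 36. Otub2, a deubiquitinase, had 144.1, 138.2 and 186.1 CPM in RS and 1453, 986.6 and 860.1 CPM in ES (log2 change 2.81, q = 5.75e-06). Znrf4, a ligase of the endoplasmic reticulum, rose from 459 ± 74.3 to 2344 ± 286 CPM, Rnf133, a spermatid ligase, from 19.5 ± 14.9 to 196 ± 80.1 CPM, and Ube2g2, an E2 of the same membrane, from 39.1 ± 18.97 to 304 ± 99.3 CPM. March11, a ligase of spermatid vesicles, had 403.7, 447.7 and 426.3 CPM in RS and 178.9, 128.7 and 129.6 CPM in ES (-1.54, q = 3.09e-05). Of 55 proteasome contigs 10 rose and 14 fell, or 10 and 10 by DESeq2, and of 62 of Kelch and BTB cullin adaptors 12 rose and 8 fell, or 10 and 29 with library totals alone. Psma6, a core subunit, rose from 476 ± 129 to 1562 ± 215 CPM (1.72, q = 1.75e-05), and Psmd3, of the regulatory lid, fell from 80.0 ± 8.23 to 27.7 ± 7.59 CPM (-1.49, q = 0.000645).

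Chaperones and organelle genes were mixed as groups. Heat shock proteins and chaperonins gave 31 increases and 21 decreases among 102 contigs, or 18 and 46 with library totals alone. Dnajb3, a testis co-chaperone, had 1073, 1122 and 1315 CPM in RS and 3717, 3449 and 2814 CPM in ES (log2 change 1.51, q = 3.86e-06). Of 35 autophagy contigs 6 rose and 3 fell, or 4 and 14 with library totals alone. Gabarapl1, which coats autophagosomes, had 162.2, 301.2 and 308.3 CPM in RS and 1819, 1919 and 1479 CPM in ES (2.76, q = 1.96e-06). Rab, Arf and SNARE trafficking genes gave 18 increases and 25 decreases among 162 contigs, or 17 and 17 among the 70 that passed in both stages, with Arl2bp, a partner of a small GTPase needed for sperm flagella, rising from 157 ± 58.1 to 1120 ± 191 CPM and Sec23a, a coat protein of export vesicles, from 26.7 ± 3.52 to 192 ± 63.8 CPM. Solute carriers gave 12 increases and 30 decreases among 113 contigs, with a median of -0.85 and 7 and 17 among the 37 that passed in both stages.

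Families named for the testis held many increases. Of 55 contigs of Spata genes, named for expression in spermatogenesis, 39 rose and 6 fell (median 1.80), and of 53 of Tex genes, named for testis expression, 24 rose and 5 fell (median 0.58). Spata33, of the sheath around tail mitochondria, had 991.8, 1067 and 1226 CPM in RS and 1972, 2207 and 1771 CPM in ES (log2 change 0.86, q = 0.000371, or 0.11 with q = 0.449 on library totals alone). Tex37 rose from 194 ± 67.3 to 1440 ± 239 CPM and Tex35 from 38.7 ± 10.2 to 305 ± 86.1 CPM. Of 18 contigs of polyamine genes 11 rose and 0 fell (median 1.88), but these belonged to 4 genes, and 6 were contigs of Oaz3. Families named only for a domain were divided, with 30 increases and 29 decreases among 122 Ccdc contigs and 33 and 22 among 119 Tmem contigs, or 21 and 71 and 26 and 57 with library totals alone. Ccdc54 rose from 241 ± 62.8 to 1470 ± 270 CPM, and Ccdc62, a protein of the spermatid head, fell from 79.6 ± 11.9 to 24.6 ± 3.80 CPM.

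Calls also differed by features that the filter did not use. Of 225 contigs of at most 500 nt, 54.7% rose and 6.22% fell, and of 2044 contigs over 4000 nt, 17.5% rose and 13.1% fell. With library totals alone the first were 73 and 48 contigs and the last 228 and 1020. The median log2 change of contigs up to 1000 nt exceeded that of longer ones by 0.62, and by 0.63 with library totals alone. Across 10551 contigs, which share libraries and are not independent, the rank correlation of length with log2 change was -0.13. Of 371 contigs with 1 exon 41.2% rose and 15.4% fell (121 and 146 contigs with library totals alone), and of 3688 with more than 10 exons 15.4% rose. By transcript type, 21.8% of protein-coding contigs rose and 17.8% fell, against 35.9% and 9.28% of processed transcripts and 27.2% and 6.36% of those annotated for nonsense-mediated decay. With library totals alone 1349 protein-coding contigs rose and 4686 fell, 125 processed transcripts rose and 152 fell, and 87 and 158 of those annotated for decay. Of 24 processed pseudogene contigs 58.3% rose, but their reads can come from the parent genes. Of 495 repeat contigs 168 rose and 54 fell, or 136 and 173 with library totals alone. By class 37.5% of 104 LINE, 37.2% of 218 LTR and 25.3% of 146 SINE contigs rose, the last near the 23.4% over all contigs.

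**Figure D5:**
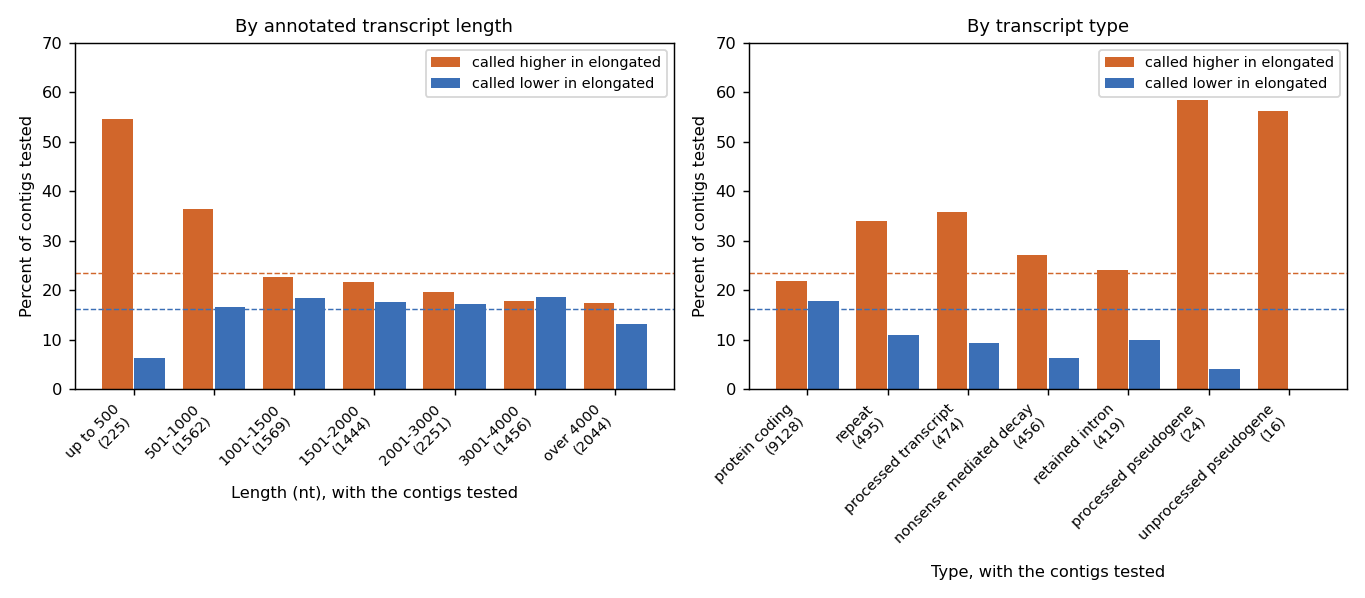
Percent of contigs called higher and lower in ES by transcript length and by transcript type, with dashed lines at the shares over all 11201 contigs (23.4% and 16.2%). Contigs of at most 500 nt lie at 54.7% higher, and the share falls to 17.5% above 4000 nt.

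In 25 genes contigs of both directions were called after TMM scaling, and in 19 of these the contigs that rose were all shorter than those that fell. Larp1b, an RNA-binding protein, had a contig of 2497 nt that fell from 181 ± 18.9 to 74.3 ± 3.90 CPM and one of 1030 nt that rose from 7.77 ± 3.93 to 58.4 ± 9.02 CPM. For H3f3a, histone H3.3, a contig of 2841 nt fell from 1042 ± 93.9 to 585 ± 69.1 CPM and one of 724 nt rose from 9.29 ± 4.96 to 45.6 ± 13.02 CPM. For Atp5b, of the ATP synthase, the lengths were 1916 and, in a processed transcript, 478 nt, with a fall from 366 to 186 CPM and a rise from 16.5 to 59.6 CPM. With library totals alone the shorter contigs of Larp1b, H3f3a and Atp5b still rose, by 2.137, 1.498 and 1.043 on the log2 scale. Their q values were 0.000326, 0.0093 and 0.0227. Other increases were lost, as in Cfap206 (-0.2152, q = 0.35) and Gtsf1 (0.4919, q = 0.118). That of Rps13 became a decrease (-0.3423, q = 0.0385). The counts of 25 and 19 genes therefore hold for TMM scaling only. Read length was not analysed here.

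On the X chromosome 41.7% of 211 contigs rose and 12.3% fell, although with library totals alone 76 rose and 82 fell. On the Y 1.82% of 55 rose and 18.2% fell, the latter near the 16.2% over all contigs. Multicopy X families carried part of the gain: all 6 Cypt contigs, of basic spermatid proteins, and all 8 H2al contigs rose, and their summed means went from 435 to 2294 CPM and from 330 to 2196 CPM. Among Y contigs the 10 that fell were predicted genes with Gm names. All 50 Y contigs with such names, called or not, went from 1651 to 981.5 CPM in summed means. Single members of these families are uncertain, since near-identical copies can share reads, so the sums are the firmer values.

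Promoters were searched for 2 motifs on both strands, from 250 bases before to 50 after the start site in RefSeq, for 5259 of 6633 gene symbols. The cyclic AMP response element TGACGTCA, bound by the spermatid factor CREM, was found in 2.03% of 27025 promoters, in 4.96% of 1190 genes with only increases, in 4.01% of 1221 with only decreases and in 4.07% of 2825 not called. TATAAA was found in 15.7% of all, and in 11.2%, 7.70% and 7.97% of these groups. The windows below are shown as examples of both directions, with the element in capitals (GRCm38.p6, RefSeq). The genes were taken for the largest changes among contigs of at least 100 CPM with the element, and the log2 changes are those of 1 contig each. Iqcf3 (2.95) is read at chr9:106561659-106561688 on the minus strand and Fam187b (2.80) at chr7:30977003-30977032 on the plus strand. Phospho2 (-1.40) is read at chr2:69789564-69789593 on the plus strand and Cenpw (-1.29) at chr10:30200580-30200609 on the minus strand.
Iqcf3: aggtatctttgTGACGTCAtagccagctcc
Fam187b: agttctgtgggTGACGTCAcagtacccaag
Phospho2: cacgccggaagTGACGTCAgtctccaatcc
Cenpw: gtggttttcagTGACGTCAcagccgtgcgc
The element lay 51 and 46 bases before the start site in Iqcf3 and Fam187b, and 162 and 58 bases before it in Phospho2 and Cenpw. A match is a run of letters and not a measured binding site.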

How the data were processed

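The authors sequenced poly(A) RNA of sorted spermatids on Nanopore R9 chips with a barcoded direct RNA kit, called bases with Guppy, separated barcodes with Deeplexicon and mapped reads with minimap2 (2.20-r1061 per the labels) and SAMtools to mouse transcripts (GENCODE on GRCm38) and repeats. The deposited table holds raw read counts per contig in 12 libraries. Deposited tables of the authors' own DESeq2 comparisons (log2 fold changes and adjusted p-values) were not used.

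Contigs with at least 10 reads in 2 or more of the libraries of either wild-type stage were tested with edgeR 4.0.16 (R 4.3.3; glmQLFit and glmQLFTest, TMM scaling, 1 mean per group, all 12 libraries), adjusted by Benjamini-Hochberg over 11201 contigs and called at 0.05. The SE is the absolute log2 change divided by the square root of the test's F. CPM are TMM-scaled, and the floor of measurement was 3 counts. Counting intervals would cover counting error only. Names, types and positions came from GENCODE M21, which held 98.5% of 11517 transcript contigs. Totals of the table may be below full sequencing depth. DESeq2 1.42.0, other scalings, filters, sample sets, gene sums, robust moderation, a replicate block and leaving out each library were alternatives. The code was tested on simulated counts. Figures used matplotlib 3.10.9 and pandas 2.3.3 in Python 3.11.15.

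The members, lists and tests were chosen with earlier results of these data known, so the lists are no independent evidence. Psmc3ip, Spata4, Prss21 and Spata20 were taken out of 3 lists they had been placed in wrongly after their values were seen. Genes named were the 10 largest increases and decreases among called, protein-coding, non-overlapping contigs of at least 100 CPM, the 10 of highest mean CPM in each stage, the 10 largest gains and losses in CPM, up to 2 increases, 2 decreases and the most abundant contig of a list, and the markers of other cell types. Decreases that rested on a few ES reads or on 1 library were mostly left as counts. Counts among contigs that passed the filter in both stages were added after the values were seen.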

Additional observations from a re-analysis of the deposited data

How the results depend on the processing

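With library totals alone 7228 contigs were called, 5415 of them lower, and with upper-quartile scaling 3033 were lower. With at least 10 reads required in each of the 6 libraries, which left 4081 contigs to test, 2809 were called and 1346 were higher, 47.9% of the calls. Leaving out 1 library gave 3313 to 4027 contigs called, 2395 to 2661 higher and 917 to 1537 lower, the lowest without ES replicate 2. DESeq2 called 3973 contigs, 2609 higher and 1364 lower. The cause of these differences was not tested beyond what each setting changes. Of 348 named contigs 6 changed sign with library totals alone: Btg1 -0.24 (q = 0.196), Crisp2 -0.088 (q = 0.727), Eef1a1 -0.38 (q = 0.0121), Ldhc -0.70 (q = 3.56e-05), Meig1 -0.47 (q = 0.00601) and Tubb4b -0.24 (q = 0.0788). RS and ES cells came from the same mice, but no source used here says that libraries of the same replicate number do. Deviations of same-numbered libraries correlated at 0.503, 0.531 and -0.215 over 4777 contigs, and RS replicate 3 correlated best with ES replicate 2. The 6 wild-type libraries alone gave 4284 calls, 2581 higher and 1703 lower, and adding the replicate block to that fit gave 5083, 2816 higher and 2267 lower. Against the 12-library fit, 7 of the named contigs gained and 4 lost their call with the block. With at least 10 reads in each library the medians of 8 lists changed side of the median of all contigs, kinesins among them. The depth of ES replicate 3 limits what can be said of contigs below 10.8 CPM in ES.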
